A study of Mus musculus with 3 samples.

Results

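The smooth muscle contractile genes examined here were Acta2 and 9 genes that are switched on with it in smooth muscle cells and myofibroblasts, namely Actg2, Tagln, Cnn1, Myl9, Tpm1, Tpm2, Cald1, Myh11 and Lmod1. The set was chosen by gene name around a measured value. The high Acta2 intensity in BM 2nd cells relative to parental cells was known from an earlier reading of the same arrays, so that ratio is a description here, and the other 9 genes were set beside it to see whether Acta2 moved alone or with its programme. All 10 genes had a probe, 25 probes in all, of 19057 genes and 34885 probes paired with 1 gene on the array, which carried 45281 probes in total.

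The cells were LLC/luc cells, a Lewis lung carcinoma line of C57BL/6 background that carries luciferase. Parental LLC/luc cells were compared with 2 sub-lines obtained by in vivo selection for growth in bone. BM 1st cells were grown in culture from bone lesions that parental cells had formed in mice, and BM 2nd cells from bone lesions that BM 1st cells had formed in turn. Total RNA of each line was measured on 1 Illumina mouse bead array, 3 arrays in all. The lines form 1 lineage, each sub-line is a single culture that had passed through an animal, and the parental array is shared by both comparisons with parental cells. There are no replicates, so differences have no replicate check and no p-value, and precision is limited by the number of arrays.

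Smooth muscle alpha-actin, the product of Acta2, polymerises into the thin filaments that smooth muscle myosin pulls on. In smooth muscle and in myofibroblasts, the contractile fibroblasts of healing wounds and of tumour stroma, Acta2 is usually expressed together with genes for thin filament proteins such as transgelin, calponin, caldesmon and tropomyosin. Many of these genes carry CArG boxes in their promoters, to which serum response factor (SRF) binds with its cofactors myocardin and the myocardin-related transcription factors, and the Acta2 promoter is also known for MCAT elements, the sites of TEAD factors.

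The RefSeq promoters of 3 genes, picked with their array values known, are shown because they hold different numbers of these elements. Each is 300 bases of assembly GRCm38.p6, 250 before and 50 after the start given by RefSeq, and the table held an entry for 7 of the 10 genes. Capitals mark a CArG box, taken as CC and GG around 6 bases of which at most 1 is not A or T, or an MCAT element, CATTCC on either strand. Acta2 (chr19:34255324-34255623, minus strand) was the gene with the high value in BM 2nd cells, Myl9 (chr2:156775214-156775513, plus strand) was not above background in any line, and Tpm1 (chr9:67049164-67049463, minus strand) was bright in all of them.
Acta2: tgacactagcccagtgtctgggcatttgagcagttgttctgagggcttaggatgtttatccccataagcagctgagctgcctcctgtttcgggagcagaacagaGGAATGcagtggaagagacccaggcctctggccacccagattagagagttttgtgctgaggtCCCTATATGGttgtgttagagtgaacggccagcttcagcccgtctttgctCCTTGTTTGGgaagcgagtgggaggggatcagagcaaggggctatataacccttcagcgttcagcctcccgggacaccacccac
Myl9: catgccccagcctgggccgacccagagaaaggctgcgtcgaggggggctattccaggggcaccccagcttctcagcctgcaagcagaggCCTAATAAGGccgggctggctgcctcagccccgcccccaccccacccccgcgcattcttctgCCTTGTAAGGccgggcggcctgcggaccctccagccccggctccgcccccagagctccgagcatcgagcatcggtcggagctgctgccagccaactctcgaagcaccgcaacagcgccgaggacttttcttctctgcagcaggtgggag
Tpm1: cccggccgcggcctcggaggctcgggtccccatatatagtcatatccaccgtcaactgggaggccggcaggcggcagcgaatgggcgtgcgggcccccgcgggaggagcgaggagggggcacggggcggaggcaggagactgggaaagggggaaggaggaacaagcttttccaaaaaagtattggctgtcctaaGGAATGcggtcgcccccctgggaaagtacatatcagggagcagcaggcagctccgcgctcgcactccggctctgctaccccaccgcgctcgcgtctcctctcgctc

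The Acta2 promoter held 2 CArG boxes, each with 1 inner base that is not A or T, and 1 MCAT element. The Myl9 promoter also held 2 CArG boxes, 1 of them with all 6 inner bases A or T, and no MCAT element. The Tpm1 promoter held no CArG box of this form and 1 MCAT element. Over the 7 genes, a CArG box was present in 2 (Acta2 and Myl9) and an MCAT element in 4 (Acta2, Tpm1, Cald1 and Lmod1). Of 32851 mouse promoters of the same length 9.98% held at least 1 such CArG box, 0.822% held 2 or more, 1.63% held one with all 6 inner bases A or T, and 14.7% held an MCAT element. Matches to these letters describe the window and say nothing of binding in these cells. At its brightest probe Acta2 lay above background in all 3 lines, and Myl9 did so in none at its only probe. Probes of different genes cannot be set against each other, and a link between these elements and the intensities was not tested.

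The deposited values are linear intensities. Background on each array was taken as the 95th percentile of 1501 probes for olfactory and vomeronasal receptors, genes that few cells outside sensory epithelia use, and was 109 for the parental line, 110 for BM 1st and 107 for the BM 2nd line. Each gene is represented by the probe whose log2 intensity averaged highest over the arrays. A gene was compared where either array of the pair exceeded background, and was counted as higher or lower past a log2 ratio of 1 or -1. Between 9543 and 10012 genes lay above background on each array. The receptor probes still read a median between 92.0 and 92.8 on the arrays, so a ratio of a dim gene is smaller than the change in its RNA. In bulk RNA, fewer cells of a type and less RNA per cell cannot be told apart. The intensity of different probes cannot be set against each other, so each gene is compared only with itself.

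Acta2 (chr19:34240336-34255585) read 126 in the parental line, 139 in BM 1st and 1128 in the BM 2nd line at its brightest probe. Parental and BM 1st cells were both just above background, and BM 2nd cells stood apart from both. The ratio was 8.94-fold in BM 2nd cells relative to parental cells (log2 ratio 3.16), 8.11-fold relative to BM 1st cells (log2 ratio 3.02), and 1.10-fold in BM 1st cells relative to parental cells (log2 ratio 0.14). Ranked from the highest log2 ratio, Acta2 was number 15 of 10576 genes in BM 2nd against parental cells, number 8 of 10551 in BM 2nd against BM 1st cells, and number 3287 of 10370 in BM 1st against parental cells. The robust SD of the log2 ratio over the genes compared, scaled from the median absolute deviation, was 0.30 in BM 2nd against parental cells, 0.31 in BM 1st against parental cells and 0.33 in BM 2nd against BM 1st cells. Thus the difference of Acta2 between BM 1st and parental cells lay within the usual spread between these arrays.

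**Figure D1:**
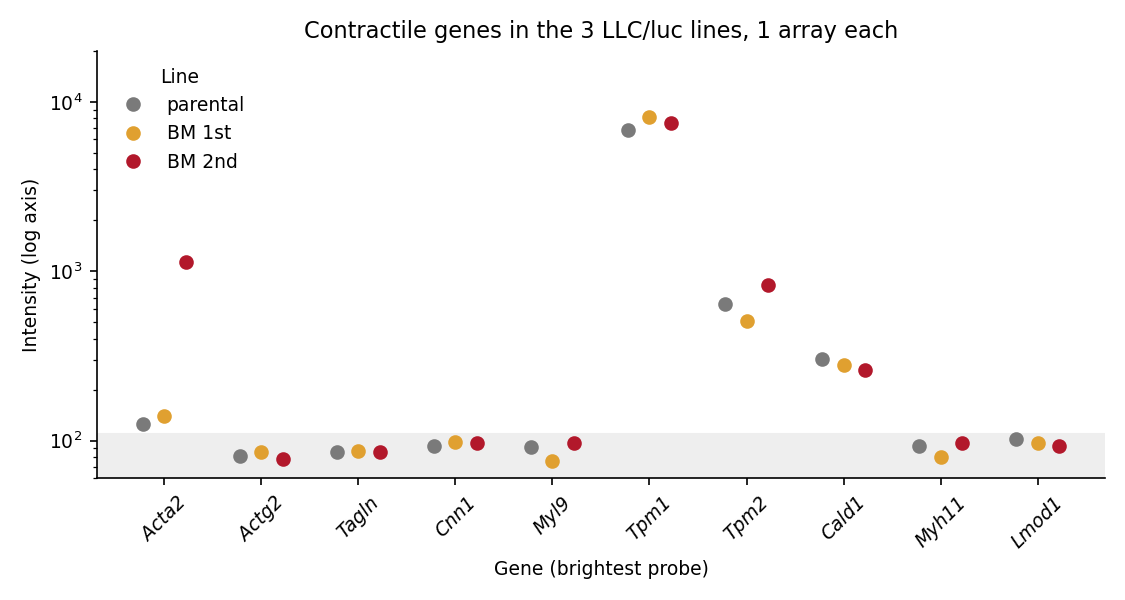
Intensity (log axis) of the 10 contractile genes at the brightest probe of each, in parental (grey), BM 1st (orange) and BM 2nd cells (red), 1 array per line, with the band up to the background level shaded. Acta2 reached 1128 in BM 2nd cells, Tpm1, Tpm2 and Cald1 lay above background in all 3 lines, and the other 6 genes lay within the band in all 3.

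The high Acta2 value rested on 1 of 6 probes. The probe ILMN_2693895 gave the values above. ILMN_2710354 read 129 in the parental line, 150 in BM 1st and 195 in the BM 2nd line, a log2 ratio of 0.59 in BM 2nd against parental cells. ILMN_2710353 read 128 in the parental line, 117 in BM 1st and 144 in the BM 2nd line, a log2 ratio of 0.17 in BM 2nd against parental cells. All 3 probes were highest in BM 2nd cells, but only the first passed the threshold. ILMN_2923445 was not above background in parental cells (95.8) or BM 1st cells (101) and read 187 in BM 2nd cells, at least 1.71-fold higher than in parental cells and at least 1.70-fold higher than in BM 1st cells. ILMN_1237242 read 98.2 in the parental line, 90.6 in BM 1st and 93.8 in the BM 2nd line, and ILMN_1236619, paired with a separate cDNA, read 87.4, 84.2 and 86.6 in the same order of lines. Neither of these was above background on any array. All 4 probes that could be compared were highest in BM 2nd cells, but this is not independent support from each. ILMN_2923445 could be compared only because it exceeded background there, and ILMN_2693895 gave the value around which the set was chosen. The median log2 ratio over all 6 probes was 0.38 in BM 2nd against parental cells. When the log2 intensities of all 6 probes were averaged, the Acta2 log2 ratio was 0.80 in BM 2nd against parental cells and 0.78 in BM 2nd against BM 1st cells, and Acta2 was no longer counted. With the probe brightest in parental cells, a choice made after seeing the data, it was 0.59 and 0.38 and again not counted. Where on the transcript each probe lies was not analysed here.

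**Figure D2:**
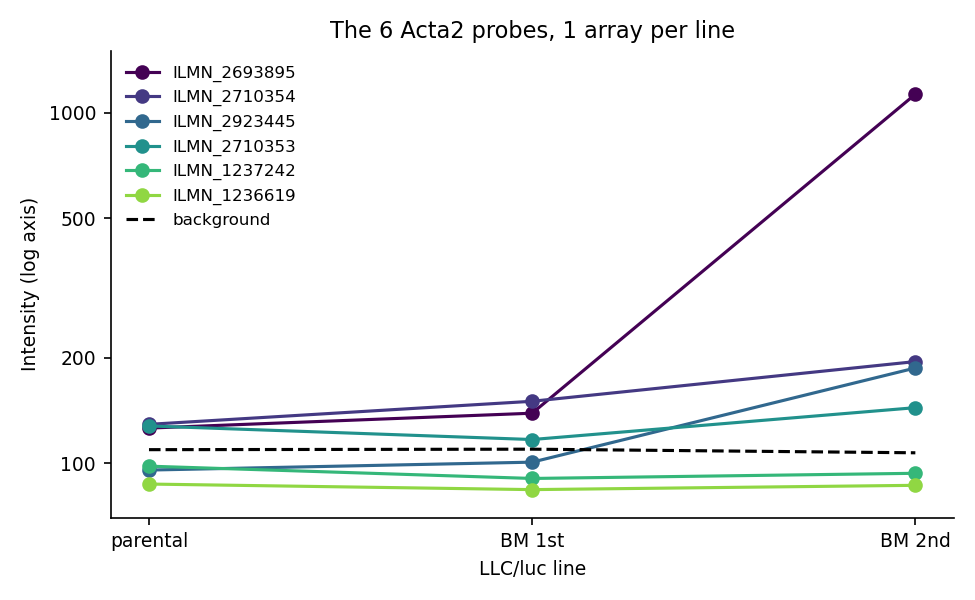
Intensity (log axis) of the 6 Acta2 probes in each line (parental, BM 1st, BM 2nd, 1 array each), with a dashed line at the background of each array. 1 probe reached 1128 in BM 2nd cells, 3 lay between 144 and 195 there, and 2 lay below background in every line.

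Calls on these arrays were also read probe by probe. Over all 10576 genes compared between BM 2nd and parental cells, 194 were higher (1.83%) and 162 were lower (1.53%), and over single probes 238 of 16624 were higher (1.43%). Of the 123 higher genes with 2 or more probes, 91 had only 1 probe past the threshold. Of the 87 with 2 or more probes that could be compared, 55 had only 1. Only 4 higher genes had 4 or more such probes, as Acta2 did, and 2 of these, Acta2 included, rested on 1 probe. Of the lower genes, 55 of 94 with 2 or more probes had only 1 past the threshold, 45 of the 84 with 2 or more compared probes, and 1 of the 7 with 4 or more. Where genes had 2 or more probes above background, the median SD between the probes of a gene was 0.14 on the log2 scale (3384 genes), against which the Acta2 probes differed widely.

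The actin genes share much of their coding sequence, so the other actins were read beside Acta2. Actg2, the enteric smooth muscle actin and a member of the set, read 81.1 in the parental line, 85.7 in BM 1st and 77.8 in the BM 2nd line and was not above background. The skeletal actin Acta1 and the cardiac actin Actc1 were not above background in any line either. Actb, the cytoplasmic beta-actin, was bright and nearly level, at 11596 in the parental line, 10320 in BM 1st and 10713 in the BM 2nd line (log2 ratio -0.11 in BM 2nd against parental cells). At the brightest probe of each gene, no other actin followed the bright Acta2 probe. Actb had 5 probes and Actc1 had 2, and their other probes were not read. Cross-hybridisation between actins was not tested with the probe sequences. Actg1 had no probe in the annotation used.

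Of the other 9 contractile genes, none was counted as higher or lower in BM 2nd against parental cells, where 1.83% and 1.53% of all genes were. In BM 1st against parental cells, no gene of the set was counted, beside 212 higher (2.04%) and 186 lower (1.79%) of 10370 genes. In BM 2nd against BM 1st cells, Acta2 was the only 1 counted as higher and none was lower, beside 318 higher (3.01%) and 188 lower (1.78%) of 10551 genes. The count for Acta2 follows from how the set was chosen. Only 3 of the other 9 could be compared, and a count of 0 of 3 is near these percentages and is no result particular to them. The median log2 ratio of the 9 was 0.05 in BM 2nd against parental cells (from -0.21 to 0.37), -0.09 in BM 1st against parental cells (from -0.35 to 0.27) and -0.03 in BM 2nd against BM 1st cells (from -0.14 to 0.71). Beside these, the median over all genes lay within 0.01 of 0 in each comparison. The log2 ratios of 8, 8 and 7 of the 9 genes lay within 1 robust SD of 0 in the 3 comparisons in that order. That SD comes from genes above background, so genes at background lie within it almost in advance. Only 3 of the 9 genes, Tpm1, Tpm2 and Cald1, were above background, and the ratios of the other 6 compare background with background. The median log2 ratio of these 3 was 0.14, -0.10 and -0.11 in the same order of comparisons.

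The thin filament regulators specific to smooth muscle were not above background. Tagln, which encodes the actin-bundling protein transgelin and is a standard early marker of smooth muscle, read 85.2 in the parental line, 86.8 in BM 1st and 85.3 in the BM 2nd line, and its second probe read 83.8, 82.4 and 73.7 in the same order of lines. Cnn1, whose product calponin binds actin and restrains myosin ATPase activity, read 93.2 in the parental line, 98.5 in BM 1st and 97.6 in the BM 2nd line. Both genes thus stayed at the level of receptor probes in the line in which Acta2 was high. Lmod1, a leiomodin that nucleates actin filaments in smooth muscle, read 103 in the parental line, 96.4 in BM 1st and 92.9 in the BM 2nd line.

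The smooth muscle myosin subunits in the set were not above background either. Myh11, the smooth muscle myosin heavy chain and the marker held to be most specific to mature smooth muscle, read 93.1 in the parental line, 80.1 in BM 1st and 96.4 in the BM 2nd line, and its second probe read 79.3, 78.4 and 80.2 in the same order of lines. Myl9, the regulatory light chain whose phosphorylation starts contraction, read 92.0 in the parental line, 76.1 in BM 1st and 97.2 in the BM 2nd line. No fold is given where both values lie below background. A value at background does not show that a gene is silent. Rhoa, a GTPase found in nearly every cell and among the regulators listed for the programme, read 85.2 in the parental line, 92.5 in BM 1st and 89.5 in the BM 2nd line at its only probe.

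The 2 tropomyosins and caldesmon, which non-muscle cells also make in other isoforms, were above background throughout. Tpm1 read 6781 in the parental line, 8182 in BM 1st and 7465 in the BM 2nd line, log2 ratios of 0.14 in BM 2nd against parental cells and 0.27 in BM 1st against parental cells. Its second probe read 2967 in the parental line, 3756 in BM 1st and 3716 in the BM 2nd line (log2 ratio 0.32 in BM 2nd against parental cells), and the other probe was not above background. Both bright Tpm1 probes were lowest in parental cells by a margin near or within the robust SD.

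Of the 3, only Tpm2 was highest in BM 2nd cells. It read 643 in the parental line, 507 in BM 1st and 831 in the BM 2nd line at its brightest probe, a log2 ratio of 0.37 in BM 2nd against parental cells, -0.35 in BM 1st against parental cells and 0.71 in BM 2nd against BM 1st cells. The difference between BM 2nd and BM 1st cells was larger than 2 robust SDs and was counted only at a threshold of 1.5-fold. Its dim probes read 104 in the parental line, 133 in BM 1st and 143 in the BM 2nd line, and 92.7, 95.3 and 115 in the same order of lines, so BM 2nd was highest at each of the 3 probes. The last of these probes exceeded background only in BM 2nd cells and could be compared only through that line. Neither dim probe exceeded background in the parental line, and the BM 2nd line was at least 1.31-fold higher at one and at least 1.05-fold higher at the other. The place of BM 1st cells, however, differed between the probes.

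Cald1, which encodes caldesmon, an actin-binding brake on myosin, read 302 in the parental line, 281 in BM 1st and 261 in the BM 2nd line, a log2 ratio of -0.21 in BM 2nd against parental cells. A second probe was just as level, at 202 in the parental line, 202 in BM 1st and 191 in the BM 2nd line. Over its 5 probes the log2 ratio for BM 2nd against parental cells ran from -0.21 to 0.28, around 0 in both directions. No tropomyosin or caldesmon probe passed the threshold, as the bright Acta2 probe did. The median over all probes of a gene, however, was 0.37 for Tpm2 and 0.38 for Acta2 in BM 2nd against parental cells. These probes were not assigned to muscle or non-muscle isoforms, which arise from the same genes by splicing.

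**Figure D3:**
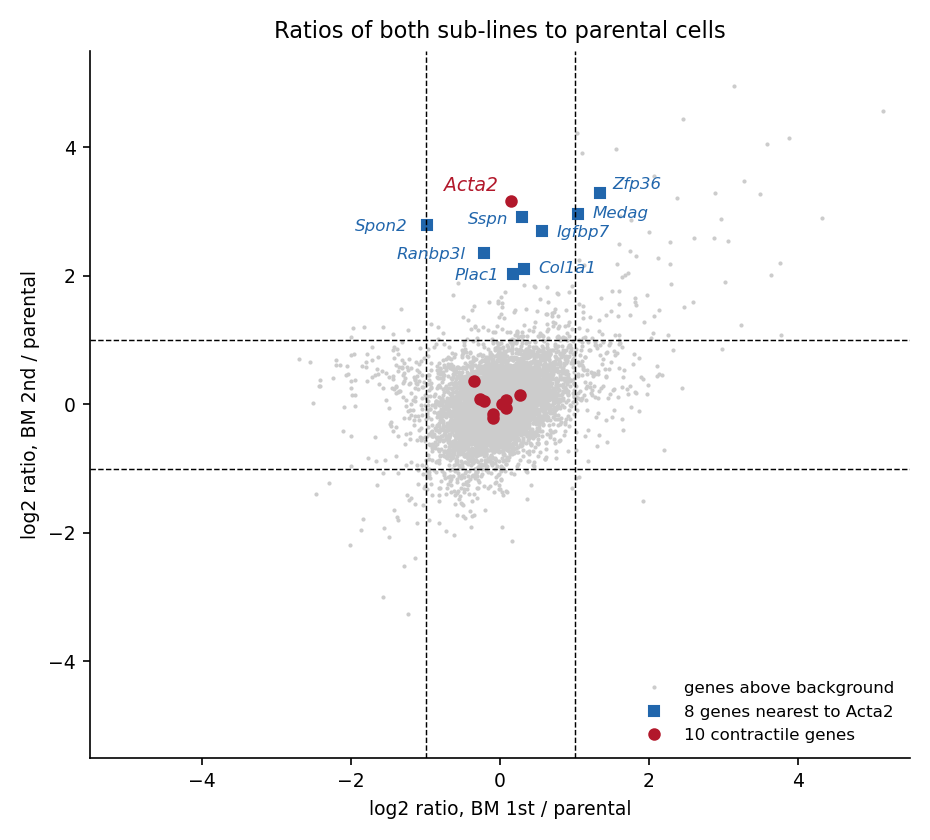
Log2 intensity ratio of BM 2nd to parental cells against that of BM 1st to parental cells, for genes above background (grey), the 10 contractile genes (red circles) and the 8 genes nearest to Acta2 (blue squares), with dashed lines at 1 and -1. The 9 other contractile genes lie within 0.37 of 0 on both axes, while Acta2 stands at 3.16 on the vertical and 0.14 on the horizontal axis.

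The wider contractile apparatus was read from a list of 22 other genes, of which 13 could be compared between BM 2nd and parental cells. None of these was counted as higher or lower there, and their median log2 ratio was 0.25, beside 0.01 over all genes compared. In BM 1st against parental cells none of 12 was counted (median -0.20), and in BM 2nd against BM 1st cells 2 of 14 were higher and none lower (median 0.24), beside 3.01% and 1.78% of all genes. Mylk, the myosin light chain kinase that starts smooth muscle contraction, read 249 in the parental line, 147 in BM 1st and 478 in the BM 2nd line, log2 ratios of 0.94 in BM 2nd against parental cells and 1.70 in BM 2nd against BM 1st cells. Csrp1, a LIM protein of the smooth muscle cytoskeleton, read 1779 in the parental line, 1313 in BM 1st and 2986 in the BM 2nd line, log2 ratios of 0.75 and 1.19 in the same comparisons. Both were lowest in BM 1st cells and highest in BM 2nd cells, as were the brightest Tpm2 probe and the Acta2 probe ILMN_2710353 but not the brightest Acta2 probe. Not all bright genes of the list were highest in BM 2nd cells. Of the genes compared between BM 2nd and parental cells, only Pdlim7, Itga7 and Ldb3 had log2 ratios below 0 (-0.75, -0.33 and -0.01). Pdlim7, a PDZ and LIM protein of actin filaments, read 3139 in the parental line, 2160 in BM 1st and 1871 in the BM 2nd line. Smtn, the smooth muscle protein smoothelin, had a log2 ratio of 0.21 in BM 2nd against parental cells and -0.45 in BM 2nd against BM 1st cells.

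The non-muscle paralogs of the set, such as Myh9, Tagln2 and Tpm4, showed no common direction. Of the 9 that could be compared between BM 2nd and parental cells none was higher and 1 was lower, beside 1.83% and 1.53% of all genes, with a median log2 ratio of -0.10. Myh10, a non-muscle myosin heavy chain, was that gene and read 517 in the parental line, 241 in BM 1st and 253 in the BM 2nd line (log2 ratio -1.03 in BM 2nd and -1.10 in BM 1st cells, each against parental cells).

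Of 19 regulators of the programme, 18 had a probe and 14 were above background on 1 or more arrays. None of the 14 compared was counted in BM 2nd against parental cells, beside 1.83% higher and 1.53% lower of all genes. Srf itself read 1555 in the parental line, 958 in BM 1st and 1512 in the BM 2nd line, a log2 ratio of -0.04 in BM 2nd against parental cells and -0.70 in BM 1st against parental cells. The Srf intensity in BM 2nd cells lay close to that in parental cells. SRF activity was not measured, and its part in the Acta2 value was not tested. Of the cofactors, Myocd (myocardin) read 103 in the parental line, 93.8 in BM 1st and 108 in the BM 2nd line, where it was barely above background, and Mrtfa read 97.6 in the parental line, 122 in BM 1st and 114 in the BM 2nd line, at least 1.12-fold higher in BM 1st and at least 1.04-fold higher in BM 2nd than in parental cells. Among the ternary complex factors, which bind SRF in competition with myocardin factors, Elk3 had a log2 ratio of -0.27 and Elk4 of 0.25 in BM 2nd against parental cells.

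The TEAD factors and their coactivators were above background. Tead1 read 1204 in the parental line, 1318 in BM 1st and 1302 in the BM 2nd line, and Yap1 read 797 in the parental line, 1140 in BM 1st and 1054 in the BM 2nd line. Tead4 read 149 in the parental line, 258 in BM 1st and 127 in the BM 2nd line, and Wwtr1, the TAZ coactivator, read 1091 in the parental line, 1896 in BM 1st and 883 in the BM 2nd line. These 2 were lower in BM 2nd against BM 1st cells, with log2 ratios of -1.02 and -1.10. Klf5, a factor known to activate smooth muscle genes during remodelling, read 717 in the parental line, 977 in BM 1st and 373 in the BM 2nd line (log2 ratio -1.39 in BM 2nd against BM 1st cells). It completed the 3 regulators counted as lower in that comparison, of 14 compared, beside 1.78% of all genes. None was higher there, beside 3.01%. Klf4, a repressor of contractile genes, read 462 in the parental line, 422 in BM 1st and 313 in the BM 2nd line (log2 ratio -0.56 in BM 2nd against parental cells). Gata6, Prrx1 and Rock1 had log2 ratios of 0.17, -0.16 and -0.15 in BM 2nd against parental cells.

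Other targets of SRF were read in 2 lists. Of 18 cytoskeletal and matricellular targets of MRTF, SRF and YAP compared between BM 2nd and parental cells, 1 was higher and 1 lower, with a median log2 ratio of 0.06, beside 1.83% and 1.53% of all genes. In BM 2nd against BM 1st cells 2 of 18 were higher and none lower (median 0.01), beside 3.01% and 1.78%. Ccn1, a matricellular protein induced by these factors, read 545 in the parental line, 352 in BM 1st and 1768 in the BM 2nd line (log2 ratio 1.70 against parental cells), and Ankrd1, a common readout of YAP activity, read 710 in the parental line, 145 in BM 1st and 303 in the BM 2nd line (log2 ratio -1.23). The 2 genes higher in BM 2nd against BM 1st cells were these same genes, with log2 ratios of 2.33 for Ccn1 and 1.06 for Ankrd1, so Ankrd1 was lower in BM 2nd against parental cells and higher against BM 1st cells. Pls3, an actin-bundling protein, was counted as higher only in BM 1st against parental cells, with 681 in BM 1st cells and 319 in parental cells.

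The immediate early genes, which SRF drives with ternary complex factors, had the largest median difference between the sub-lines among the lists read here. Of 8 compared, 6 were higher in BM 2nd against BM 1st cells (median log2 ratio 1.62, beside 3.01% of all genes), 4 were lower in BM 1st against parental cells (median -0.94, beside 1.79% of all genes), and 2 were higher in BM 2nd than in parental cells (median 0.45, beside 1.83% of all genes). Dusp1, a MAP kinase phosphatase, had the pattern over the lines closest to that of Acta2 among the 4 named, at 2193 in the parental line, 2205 in BM 1st and 6964 in the BM 2nd line. Junb read 2893 in the parental line, 3914 in BM 1st and 6363 in the BM 2nd line. Egr2 read 270 in the parental line, 168 in BM 1st and 502 in the BM 2nd line, and Fosb read 4207 in the parental line, 1458 in BM 1st and 5877 in the BM 2nd line. In Egr2 and Fosb BM 1st cells were lowest, whereas Acta2 was level between BM 1st and parental cells.

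TGF-beta is the best known inducer of Acta2 in fibroblasts. Of 15 genes of its ligands, receptors, SMADs and response genes compared between BM 2nd and parental cells, 1 was higher and none lower (median log2 ratio -0.02), beside 1.83% and 1.53% of all genes. This was Tgfbi, a secreted matrix protein induced by TGF-beta, at 734 in the parental line, 413 in BM 1st and 1478 in the BM 2nd line (log2 ratio 1.01). In BM 2nd against BM 1st cells Tgfbi was again the only 1 of 15 counted (log2 ratio 1.84), beside 3.01% higher and 1.78% lower of all genes.

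**Figure D4:**
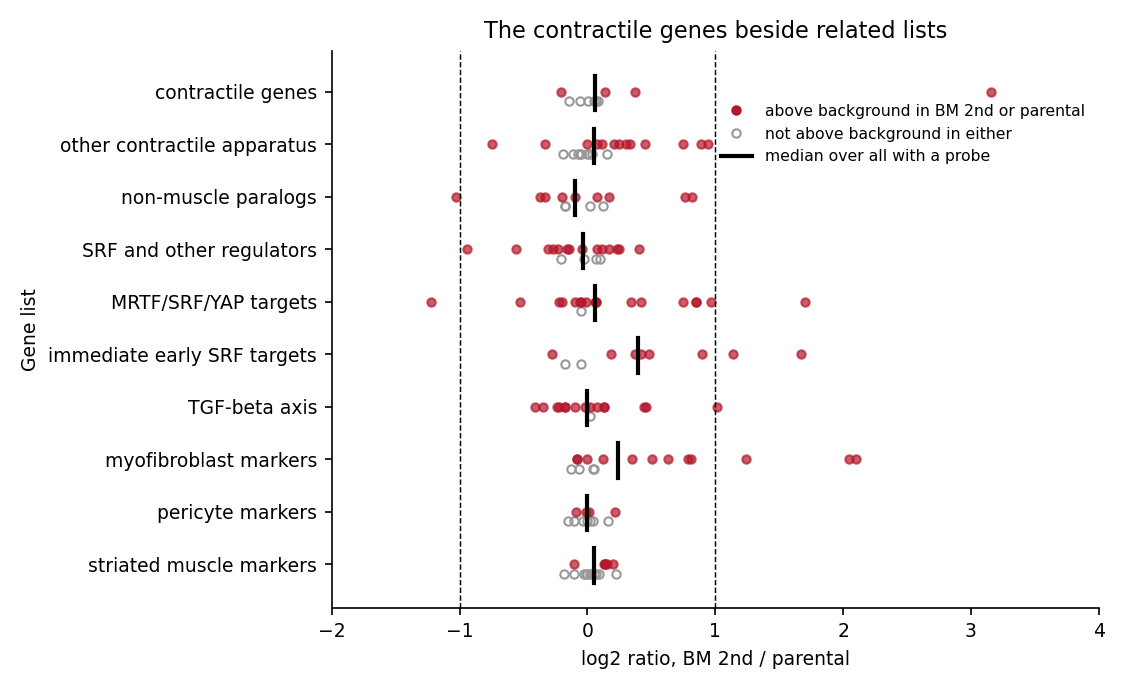
Log2 intensity ratio of BM 2nd to parental cells for each gene with a probe in the contractile set and in 9 related lists, with genes above background on either array filled, other genes open, the median over all with a probe as a bar, and dashed lines at 1 and -1. Acta2 is the single point near 3, and the medians of the lists lie between -0.10 and 0.39.

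Markers of the cells that normally carry the programme were read beside it. Of 16 myofibroblast and activated fibroblast markers with a probe, 12 were above background on 1 or more arrays, and Postn, Pdgfrb, Thy1 and Cdh11 were not above it on any. Their summed intensity was 24767 in the parental line, 24384 in BM 1st and 31097 in the BM 2nd line. In BM 2nd against parental cells 3 of 12 were higher and none lower (median log2 ratio 0.57), beside 1.83% and 1.53% of all genes. In BM 2nd against BM 1st cells 4 of 11 were higher and none lower (median 0.54), beside 3.01% and 1.78%. In BM 1st against parental cells 1 of 10 was higher and none lower (median -0.11), beside 2.04% and 1.79%. Col1a1, the collagen I alpha1 chain, did not exceed background in parental cells (96.0) and read 120 in BM 1st and 412 in the BM 2nd line, at least 3.76-fold higher in BM 2nd than in parental cells. Pdgfra, a growth factor receptor of fibroblasts, read 258 in the parental line, 851 in BM 1st and 1068 in the BM 2nd line, and S100a4, a calcium-binding protein of fibroblasts and metastatic cells, read 782 in the parental line, 413 in BM 1st and 1853 in the BM 2nd line. Col3a1 read 1107 in the parental line, 833 in BM 1st and 1946 in the BM 2nd line and was counted only against BM 1st cells (log2 ratio 1.22). Pdgfra was already counted as higher in BM 1st cells, where Acta2 was level, and was not counted in BM 2nd against BM 1st cells (log2 ratio 0.33). Col1a2, the partner chain of Col1a1, read 110 in the parental line, 107 in BM 1st and 104 in the BM 2nd line, and Fn1 (fibronectin) read 5860 in the parental line, 9131 in BM 1st and 5854 in the BM 2nd line. The markers thus did not share 1 pattern over the lines, although their median was positive in both comparisons of BM 2nd cells. Their part in the Acta2 value was not tested.

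No pericyte or mural cell marker was counted, beside between 1.53% and 3.01% of all genes in each direction and comparison. Of 11 with a probe, 4 were above background on 1 or more arrays, in any of the 3 comparisons none passed the threshold, the defining marker Rgs5 was not above background in any line, and their summed intensity was 1098 in the parental line, 1053 in BM 1st and 1099 in the BM 2nd line. Likewise 6 of 17 skeletal and cardiac muscle markers were above background on 1 or more arrays, none was counted in any comparison, and the sum was 1696 in the parental line, 1716 in BM 1st and 1759 in the BM 2nd line. Of the set itself, the smooth muscle markers Myh11, Cnn1 and Tagln were not above background in BM 2nd cells. Of 12 leukocyte markers with a probe, 2 were above background in the parental line, 7 in BM 1st and 5 in the BM 2nd line, and their sum was 1167 in the parental line, 2702 in BM 1st and 1612 in the BM 2nd line. Lyz2, the lysozyme of myeloid cells, read 79.5 in the parental line, 1078 in BM 1st and 365 in the BM 2nd line, at least 3.33-fold higher in BM 2nd and at least 9.84-fold higher in BM 1st, each against parental cells. Laptm5, a lysosomal membrane protein of blood cells, read 90.1 in the parental line, 367 in BM 1st and 184 in the BM 2nd line, and Fcer1g, an Fc receptor chain, read 95.4, 255 and 128 in the same order of lines. All 3 were highest in BM 1st cells, and their part in the Acta2 value was not tested. Other markers of the list differed from them. Coro1a read 113, 133 and 173 in the same order of lines, and Tyrobp, Itgam, Cd3e, S100a8 and S100a9 were not above background in any. Of the list 2 of 5 were higher in BM 2nd against parental cells, beside 1.83% of all genes. In BM 1st against parental cells 3 of 7 were higher, beside 2.04%, and 2 of 7 were lower in BM 2nd against BM 1st cells, beside 1.78%. None of 8 endothelial markers was counted in any comparison, and at most 3 could be compared. At most 4 pericyte and 6 muscle markers could be compared. None counted in these 3 lists is near the shares over all genes and is no result particular to them. Of 9 epithelial markers 5 were above background on 1 or more arrays, among them Krt8, which read 1381 in the parental line, 997 in BM 1st and 2509 in the BM 2nd line, while its partner keratin Krt18 read 2025 in the parental line, 2280 in BM 1st and 1274 in the BM 2nd line, the opposite order, and Epcam was not above background in any line. The median log2 ratio of the 5 in BM 2nd against parental cells was 0.04, and none was counted there. In BM 2nd against BM 1st cells Krt8 was higher (log2 ratio 1.33), the only 1 of 4 counted, beside 3.01% of all genes. The median of the 4 was 0.19.

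Of the genes higher in BM 2nd than in parental cells, 69 of 194 (35.6%) also exceeded the threshold in BM 2nd against BM 1st cells, beside 3.01% of all genes compared there. Both comparisons use the same BM 2nd array, so a high reading on it raises both ratios. Of the 194, 39 were, like Acta2, within 0.5 of a log2 ratio of 0 in BM 1st against parental cells and past 1 in BM 2nd against BM 1st cells. By distance in the pair of log2 ratios of BM 1st and BM 2nd to parental cells, over the 3 arrays, the gene nearest to Acta2 was Sspn (distance 0.30), which encodes sarcospan, a membrane protein of the dystrophin complex, and read 163 in the parental line, 201 in BM 1st and 1226 in the BM 2nd line. Next came Igfbp7 (distance 0.63), a secreted IGF-binding protein, at 153 in the parental line, 227 in BM 1st and 997 in the BM 2nd line. Ranbp3l (0.88), Medag (0.92), Col1a1 (1.08), Plac1 (1.13), Spon2 (1.18) and Zfp36 (1.20) followed. None of the 8 was a contractile gene or belonged to the list of the wider contractile apparatus, and Col1a1 was the only 1 on any list read here.

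Neither gene beside Acta2 on chromosome 19 was counted. Stambpl1, which encodes a deubiquitinase and ends 3 bp from Acta2, read 1786 in the parental line, 1761 in BM 1st and 1199 in the BM 2nd line, a log2 ratio of -0.57 in BM 2nd against parental cells. Fas, the death receptor gene 35062 bp away on the other side, was close to background at 114 in parental and 114 in BM 1st cells and read 193 in BM 2nd cells (log2 ratio 0.76), and over its 4 probes that log2 ratio ran from -0.09 to 0.76.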

How the data were processed

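Total RNA from the 3 LLC/luc lines, labelled with biotin, was hybridised in 1 colour to Illumina mouse bead arrays, 1 per line. The values deposited by the authors are linear intensities. The submitters' processing notes name GenomeStudio 2011.1, while the normalization used is, like any background setting, not given in the sources used here. Sorted intensities differed between the 3 arrays by no more than 0.274, so the arrays had been brought to 1 distribution. The lowest intensity was 60.2 and the median 101. These were read as background left in the values, which could not be checked without the setting.

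Ratios were calculated in Python 3.11.15 (pandas 2.3.3, numpy 2.4.6), and figures were drawn with matplotlib 3.10.9. Gene names came from the platform annotation, updated through RefSeq (GRCm38.p6), and 18 probes with several genes and 10378 with none were left out. Promoters came from RefSeq. All members were named. Of the 14 gene lists (196 genes) the actins and regulators above background were named, and of the rest the genes past an absolute log2 ratio of 1, up to 4 per list with the largest BM 2nd to parental ratio. Rhoa, Pdlim7, Itga7, Ldb3, Smtn, Krt18, Col1a2, Fn1, Coro1a and the markers named as not above background were chosen after their values were seen. So were the non-muscle paralogs given as examples. The members and lists were chosen with earlier results of these data known. Alternatives varied the background level and filter, the centring, the probe rule, background subtraction and the threshold. Simulated data were used to check the counting of genes past the threshold. With 1 array per line no test across replicates was possible.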

Additional observations from a re-analysis of the deposited data

How the results depend on the processing

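Of 72 values recomputed under the alternatives for 12 results, 57 stayed within 1.5 times the count or within the median SD between probes of a gene. The other 15 moved further. The median of the other 9 contractile genes changed sign under some alternatives. With log2 intensities averaged over all probes, 0 contractile genes were higher in BM 2nd cells against either parental or BM 1st cells, and the Acta2 log2 ratio was 0.80 against parental and 0.78 against BM 1st cells. With the probe brightest in parental cells, a choice made after seeing the data, 0 were higher in both comparisons and the Acta2 log2 ratio was 0.59 and 0.38. With the receptor median subtracted, the Acta2 log2 ratio was 4.96 in BM 2nd against parental and 0.49 in BM 1st against parental cells. For BM 2nd against BM 1st cells it was 4.47. The median of the other 9 genes was then -0.13, 0.067 and -0.20 in the same order. These medians do not measure the genes. Most of the 9 lay below background and took the same floor on each array, the background less the receptor median. The medians equal the log2 ratios of these floors between arrays, and they are among the 15 values that moved further. At a 1.5-fold threshold 2 contractile genes, Acta2 and Tpm2, were higher in BM 2nd against BM 1st cells.

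Counts over all genes moved by more than 1.5 times under 3 alternatives, with 1 exception. The lower count in BM 2nd against BM 1st cells moved slightly less with the mean over probes, from 188 to 126. Subtraction gave 620 higher and 510 lower in BM 2nd against parental, 602 and 568 in BM 1st against parental, and 808 and 620 in BM 2nd against BM 1st cells. The 1.5-fold threshold gave 715 and 648, 674 and 661, and 902 and 751 in the same order, and the mean over probes gave 109 and 101, 137 and 108, and 192 and 126. No paired analysis was possible because each line has 1 array. Signal over background limits the 6 contractile genes that were not above background on any array, for which these arrays give no direction.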
